A study of Mus musculus with 5 samples.

Results

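Blood stem and early progenitor cells are recognised by a small set of surface proteins, and several of these proteins are also the receptors through which the cells read their niche. This account follows 9 such genes: the receptors Kit, Tek and Eng, the ligand Angpt1, the surface markers Cd34, Slamf1, Procr and Esam, and the transporter Abcg2. They were chosen by gene symbol, and each symbol matched 1 feature of the 38166 in the tables of cultured progenitors and 1 of the 34315 in the granulocyte tables. Transcript levels were measured by sequencing polyA-selected RNA of C57BL/6 mice in 5 libraries. The granulocytes were Gr1+ bone marrow cells of 12-month-old mice, sequenced as 2 technical replicates of 1 biological sample (n = 1). The remaining 3 were made from KSL cells, which are c-Kit+, Sca-1+ and lineage-negative. In these, bone marrow Sca-1+ cells of mice injected with 5-fluorouracil, a drug that kills cycling blood cells, were transduced with a knockdown retrovirus carrying green fluorescent protein, and after 2 days of culture the KSL cells bearing that protein were sorted. The virus was a control, or targeted the long non-coding RNA LncHSC-1 or LncHSC-2, with 1 library each. All 3 KSL groups therefore share the drug, the virus, the sort and a medium with 10 ng/ml stem cell factor, which is the ligand of Kit, and 100 ng/ml thrombopoietin.

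Kit is the receptor tyrosine kinase for stem cell factor and is required for the upkeep of blood stem cells. Tek, also called Tie2, is the receptor kinase for angiopoietins, and Angpt1 is its activating ligand. Eng (endoglin) is a co-receptor for ligands of the TGF-beta and BMP families. Cd34 is a sialomucin of progenitors and vessel walls, Slamf1 (CD150) is a SLAM receptor used to sort mouse stem cells, Procr is the endothelial protein C receptor, Esam is an adhesion molecule of endothelial junctions and stem cells, and Abcg2 is the dye-exporting ABC transporter behind the side population. Kit protein was itself part of the sort, so the presence of Kit transcript in KSL cells is set by the design.

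To show where these genes start, the bases just before their start sites were read from RefSeq (GRCm38.p6), in which 7 of the 9 genes have an entry with 10 start sites among them. Short binding motifs of 4 families of blood regulators were searched on both strands in the 250 bases before each start. The letters AGGAAG, bound by the ETS family, occurred in 8 of the 10 windows, and occur in 29.5% of all 32851 such windows. These 8 lie before starts of 5 genes, Cd34, Kit, Eng, Slamf1 and Abcg2. The RUNX letters TGTGGT occurred in 1 window, of Abcg2, and in 14.0% of all windows. The E-box CAGCTG occurred in 2 windows, of Procr and Abcg2, and in 13.0% of all windows. The letters AGATAA, bound by GATA factors, occurred in 0 of the 10 windows and in 9.99% of all windows. Abcg2 has 3 separate starts and Kit has 2 overlapping ones, so these windows are not independent. The shares are of windows, and no share over genes was computed. The windows of Cd34, Kit, Eng and Slamf1 are printed 5′ to 3′ on the plus strand, with each match to the ETS letters or their reverse complement in capitals, as examples of the ETS letters before receptors and markers of the set; Abcg2 holds them too and is not printed. A match is only a run of letters. In Cd34 the match begins at position -142 from the start, in Kit at -222, in Slamf1 at -49, and in Eng at -52 and -6.

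Cd34 (chr1:194938571-194938820): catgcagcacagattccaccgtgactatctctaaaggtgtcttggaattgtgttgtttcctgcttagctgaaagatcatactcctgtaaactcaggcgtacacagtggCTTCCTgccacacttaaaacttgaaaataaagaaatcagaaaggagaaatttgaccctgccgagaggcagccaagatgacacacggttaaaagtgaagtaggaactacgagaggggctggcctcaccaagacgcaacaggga

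Kit (chr5:75574737-75574986): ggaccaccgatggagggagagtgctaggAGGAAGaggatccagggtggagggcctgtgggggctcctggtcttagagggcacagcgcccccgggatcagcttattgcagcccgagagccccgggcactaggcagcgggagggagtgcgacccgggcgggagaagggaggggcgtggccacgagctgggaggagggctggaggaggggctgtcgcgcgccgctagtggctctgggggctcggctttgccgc

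Eng (chr2:32646345-32646594): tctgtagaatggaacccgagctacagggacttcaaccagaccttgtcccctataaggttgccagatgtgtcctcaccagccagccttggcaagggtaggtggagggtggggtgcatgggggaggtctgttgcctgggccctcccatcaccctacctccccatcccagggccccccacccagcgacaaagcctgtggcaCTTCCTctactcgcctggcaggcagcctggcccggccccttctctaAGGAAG

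Slamf1 (chr1:171766882-171767131): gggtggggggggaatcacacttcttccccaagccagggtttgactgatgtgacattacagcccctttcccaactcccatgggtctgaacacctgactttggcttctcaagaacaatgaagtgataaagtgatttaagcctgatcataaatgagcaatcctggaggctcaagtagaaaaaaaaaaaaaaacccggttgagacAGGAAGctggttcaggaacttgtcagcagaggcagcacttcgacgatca

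In the KSL libraries all 9 genes were detected, and they spanned a wide range of levels that kept nearly the same order in each library. Cd34 was the highest (mm9 chromosome 1, 196765015 to 196787486), at 229 FPKM in the control library, 204 with LncHSC-1 and 237 with LncHSC-2 knockdown. FPKM is fragments scaled to transcript length and to library size, so it compares genes per length. The ligand Angpt1 was next (chromosome 15, 42256271 to 42508341), at 125, 115 and 126 FPKM. Both stood well above every receptor and marker in the set, in each of the 3 libraries.

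Kit (chromosome 5, 75971012 to 76052746) was at 67.6 FPKM in the control library, 59.1 with LncHSC-1 and 62.0 with LncHSC-2 knockdown. Eng (chromosome 2, 32502115 to 32538189) was at 53.9, 59.8 and 54.6 FPKM. These were the only neighbours in the order whose ranges over the 3 libraries overlapped: Kit was above Eng in the control and LncHSC-2 libraries and just below it in the LncHSC-1 library, with Kit-to-Eng ratios of 1.254, 1.134 and 0.988.

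The transporter Abcg2 (chromosome 6, 58546666 to 58642445) was at 31.6, 27.3 and 29.6 FPKM in the control, LncHSC-1 and LncHSC-2 libraries. Esam (chromosome 9, 37335674 to 37345904) was at 21.2, 20.2 and 21.9 FPKM and was the steadiest of the set, its highest library standing 1.08 times above its lowest. The markers Slamf1 and Procr were lower than Abcg2 and Esam in each KSL library. Slamf1 (chromosome 1, 173697263 to 173731315) was at 10.4, 10.8 and 8.92 FPKM and Procr (chromosome 2, 155576953 to 155581214) at 7.43, 8.29 and 7.22 FPKM. Tek was the lowest (chromosome 4, 94405991 to 94541630), at 4.64, 4.48 and 5.15 FPKM.

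**Figure D1:**
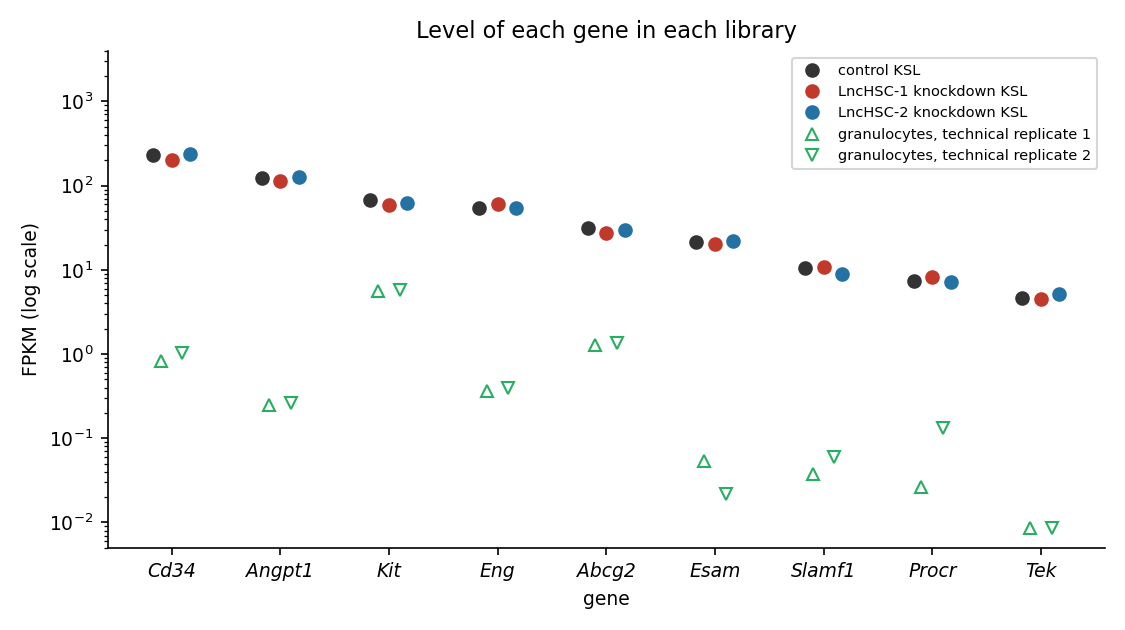
Level of each gene in FPKM on a log axis; filled circles are the 3 KSL libraries (1 per group) and open triangles the 2 technical replicates of the granulocyte sample. Genes run from Cd34, at 204 to 237 FPKM in KSL cells, to Tek, at 4.48 to 5.15. Every gene lies at a lower FPKM in the granulocytes, whose FPKM has another divisor, as do 73.1% of the 13472 features compared.

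These levels rest on unequal numbers of reads. Estimated reads of the control library were 13635 for Cd34, 12377 for Angpt1, 8585 for Kit, 4476 for Eng, 1867 for Abcg2, 908 for Esam, 669 for Slamf1, 528 for Tek and 253 for Procr, of about 21018469 in all. The other KSL libraries held 24145600 (LncHSC-1) and 19934925 (LncHSC-2) estimated reads. Procr is therefore the least precise of the set. Its transcript was the shortest, at 1500 bases, and that of Kit the longest, at 5160. These lengths were worked out from the granulocyte count column and FPKM with an assumed divisor. In 3 cases a second feature was entered at the same locus. Gm16897, at 1.01, 0.646 and 0.651 FPKM, shares the entry of Cd34, and HAG_013156, at 1.12, 1.28 and 1.05 FPKM, that of Angpt1. Fpgs, a folate enzyme gene at 16.0, 18.1 and 16.2 FPKM, shares that of Eng. The labels do not say whether the counting used strand, and reads passing between the features of such a pair cannot be told apart.

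The granulocytes held little of most of these transcripts. Kit was the highest, at 5.55 and 5.72 FPKM in the technical replicates, and was the only one of the 9 to reach 5 FPKM. Abcg2 was at 1.28 and 1.37 FPKM, Cd34 at 0.834 and 1.041, Eng at 0.360 and 0.393, and Angpt1 at 0.251 and 0.261. The other 4 genes rested on almost no reads: the deposited count score, a rescaled read number, was 2 and 10 for Procr, 5 and 8 for Slamf1, 5 and 2 for Esam, and 2 and 2 for Tek. At that depth their order in granulocytes cannot be read.

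Because the granulocytes come from another experiment, with other animals, no culture and another FPKM divisor, levels were compared by place within a library and no fold is given. Over the 13472 features that are in both tables and reach 1 FPKM in the control KSL library or the granulocytes, 55.0% stood at a lower percentile in the granulocytes and 73.1% at a lower FPKM; all 9 genes did both. Of the 9, 7 reached 1 FPKM in the KSL library only, so their entry into this comparison already fixed a lower FPKM in granulocytes and largely a lower place, and nothing is read from the count; 2, Kit and Abcg2, reached it in both. Angpt1 moved furthest, from percentile 96.0 to 12.4, followed by Cd34, from 98.3 to 24.5, and Eng, from 88.0 to 15.7. Esam moved from 68.2 to 3.87 and Abcg2 from 78.5 to 30.3. Kit moved from 90.8 to 57.3 and stayed above the middle, whereas Slamf1 (49.0 to 4.48), Procr (40.5 to 6.24) and Tek (31.2 to 1.403) began near or under the middle. Cell type and experiment cannot be told apart in this comparison, and in a sorted bulk sample a few cells with much Kit cannot be told apart from many cells with little.

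**Figure D2:**
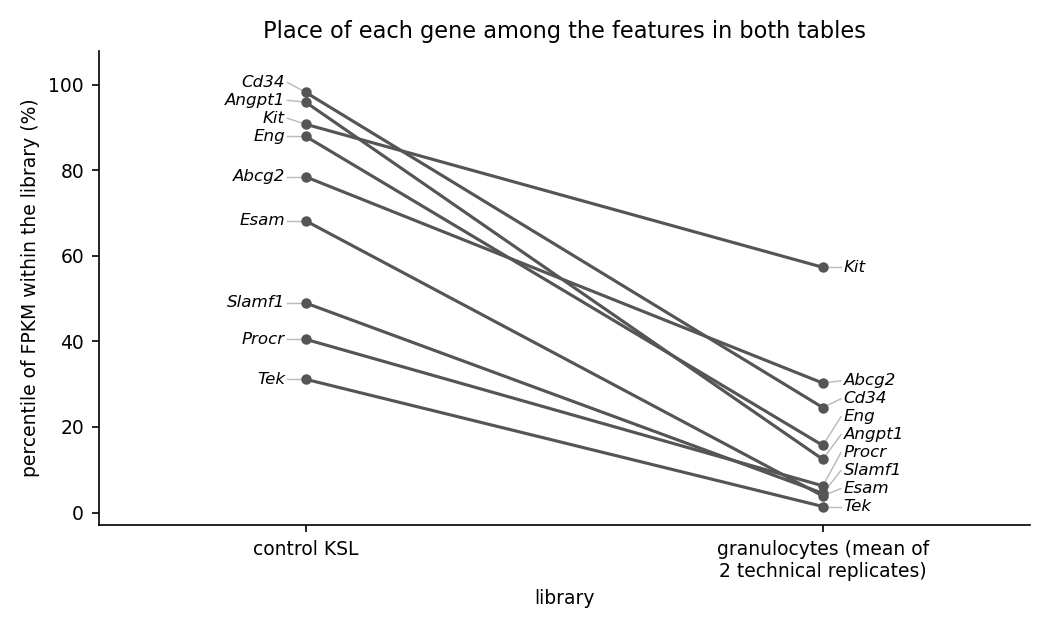
Percentile of each gene's FPKM among the 13472 features in both tables, in the control KSL library (left) and in the granulocytes (right, mean of 2 technical replicates). All 9 lines fall, from 96.0 to 12.4 for Angpt1 and from 90.8 to 57.3 for Kit. Of all the features 55.0% fall, and for 7 of the 9 genes entry into the comparison largely fixed a lower place.

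The sorted cells were checked against their markers. The sort genes Kit and Ly6a (which encodes Sca-1) were at 67.6 and 1010 FPKM in the control KSL library. The summed level of 7 granulocyte markers was 83.5 to 94.3 FPKM in the KSL libraries against 140879 in the granulocytes. Monocyte and macrophage markers, of which 5 were found, summed to 821 FPKM in the granulocytes and 67.0 in the control KSL library. The part of such cells in the granulocyte levels was not tested. Since Cd34, Tek, Eng, Esam and Procr also mark vessel walls, 8 endothelial genes were examined: 2 reached 5 FPKM in the control KSL library, Pecam1 at 26.5 and Vwf at 10.3, both of which blood progenitors or platelets also express. Emcn was at 2.40, 2.25 and 2.51 FPKM in the control, LncHSC-1 and LncHSC-2 libraries, Plvap at 0.489, 0.255 and 0.450, and Kdr at 0.396, 0.743 and 0.434, its LncHSC-1 reads lying above control (interval 0.43 to 1.41). The endothelial cadherin Cdh5 was at 0.0825, 0.159 and 0.262 FPKM, its LncHSC-2 reads lying above control (interval 0.46 to 3.03). Flt1 was at 0.0903, 0.122 and 0.0954 FPKM, and Cldn5 was listed at 0 in all 3. The interval of Vwf lay above 0 for LncHSC-1 (0.01 to 0.17) and LncHSC-2 (0.07 to 0.24). The part of endothelial cells in the levels of the set was not tested. The summed level of the 8 genes was 40.2 to 42.7 FPKM in the 3 KSL libraries. Megakaryocyte genes were well represented: the sum of 7 was 550 FPKM in the control library, led by Pf4 at 356 and the integrin gene Itga2b at 114, against 699 with LncHSC-1 and 668 with LncHSC-2 knockdown.

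The question behind the knockdown libraries was which genes depend on each long non-coding RNA. In the LncHSC-1 library no gene of the set reached the smaller of the 2 sizes used here (a size stated under the processing). Kit, Cd34, Angpt1 and Abcg2 were slightly lower and Eng slightly higher. With 1 library per group there is no replicate and no test, so these are differences between libraries that may be technical. The labels do not say which features are LncHSC-1 and LncHSC-2, so the knockdown itself could not be checked. Of the 8 genes with a mean of at least 5 FPKM over the KSL libraries (all but Tek, at 4.76), 0 differed by 2-fold and 0 by the smaller size, where 1.06% and 5.83% of all 9153 features at that level did. At such shares a count of 0 of 8 says little about the set. The 8 are named genes, and of the 7989 named features at that level 12 were past 2-fold and 277 past the smaller size, so most of the features past 2-fold are models without a gene name.

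Abcg2 lay furthest from control in the LncHSC-1 library, at 27.3 against 31.6 FPKM, a log2 ratio of FPKM + 1 of -0.21 with a 95% counting interval of -0.31 to -0.12. Such an interval is taken from the ratio of reads without a pseudocount and covers counting error only. Kit was at 59.1 against 67.6 FPKM (-0.19, -0.24 to -0.15), and Cd34 at 204 against 229 FPKM (-0.17, -0.20 to -0.13). A lower ratio than that of Abcg2 was found for 6.87% of the 9153 features, than that of Kit for 8.41%, and than that of Cd34 for 11.8%. For Eng that share was 88.4%. Angpt1 was at 115 against 125 FPKM (-0.12, -0.15 to -0.08). Eng went the other way, at 59.8 against 53.9 FPKM (0.15, 0.09 to 0.21), as did Fpgs, which shares its locus entry.

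For the other genes the LncHSC-1 interval included 0. Procr was at 8.29 against 7.43 FPKM (0.14, -0.08 to 0.40), Slamf1 at 10.8 against 10.4 (0.04, -0.10 to 0.20), Esam at 20.2 against 21.2 (-0.07, -0.20 to 0.06) and Tek at 4.48 against 4.64 (-0.04, -0.22 to 0.12). So the interval left out 0 for 5 of the 8 genes at 5 FPKM or more, and for 39.7% of all features at that level; it narrows with the level, and these 5 are the highest of the set. Below control were 5 of the 8, and 56.1% of all features. The median log2 ratio of the 8 was -0.09, against -0.02 for all features.

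At 5 FPKM or more, markers of 3 other blood lineages differed between the LncHSC-1 and control libraries by more than the set did: B cells, monocytes and, as given above, megakaryocytes. All 5 B cell markers were higher in the LncHSC-1 library, their sum being 79.1 FPKM against 46.9 in the control and 48.0 in the LncHSC-2 library, with Cd79b at 30.4 against 20.5 FPKM and none at 0. The 5 monocyte and macrophage markers found summed to 144 FPKM against 67.0 in the control library, through Ly6c2, at 101 against 32.5, and Mpeg1, at 24.3 against 17.7. The intervals of Cd68 (-0.04 to 0.44), Csf1r (-0.22 to 0.32) and Emr1 (-0.25 to 0.28) included 0. Of the granulocyte (median log2 ratio -0.12), mast cell and basophil (-0.14), erythroid (0.12) and T and NK cell (-0.02) lists, 3, 2, 1 and 1 genes reached 5 FPKM. In the LncHSC-1 library 0 of these were past the smaller size, and the medians, taken over them, lay within the range of the set. Below 5 FPKM, Tpsb2 (0.73, 0.48 to 1.57), Cma1 (0.62, 0.34 to 1.83), Mmp8 (0.34, 0.14 to 0.83) and Cd2 (0.37, -0.09 to 1.62) were higher past that size. Ltf (-0.33, -0.83 to -0.15) was lower past it. The part of these markers in the slightly lower Kit, Cd34, Angpt1 and Abcg2 was not tested. In the LncHSC-2 library, markers at 5 FPKM or more were also past that size. The megakaryocyte genes Gp9 (0.53, 0.33 to 0.78) and Gp5 (0.36, 0.24 to 0.54) and the monocyte gene Ly6c2 (0.37, 0.21 to 0.54) were higher. The granulocyte gene Ngp (-0.48, -0.88 to -0.23) was lower, and the granulocyte median was -0.23. The part of these 4 genes in the LncHSC-2 levels of the set was not tested.

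**Figure D3:**
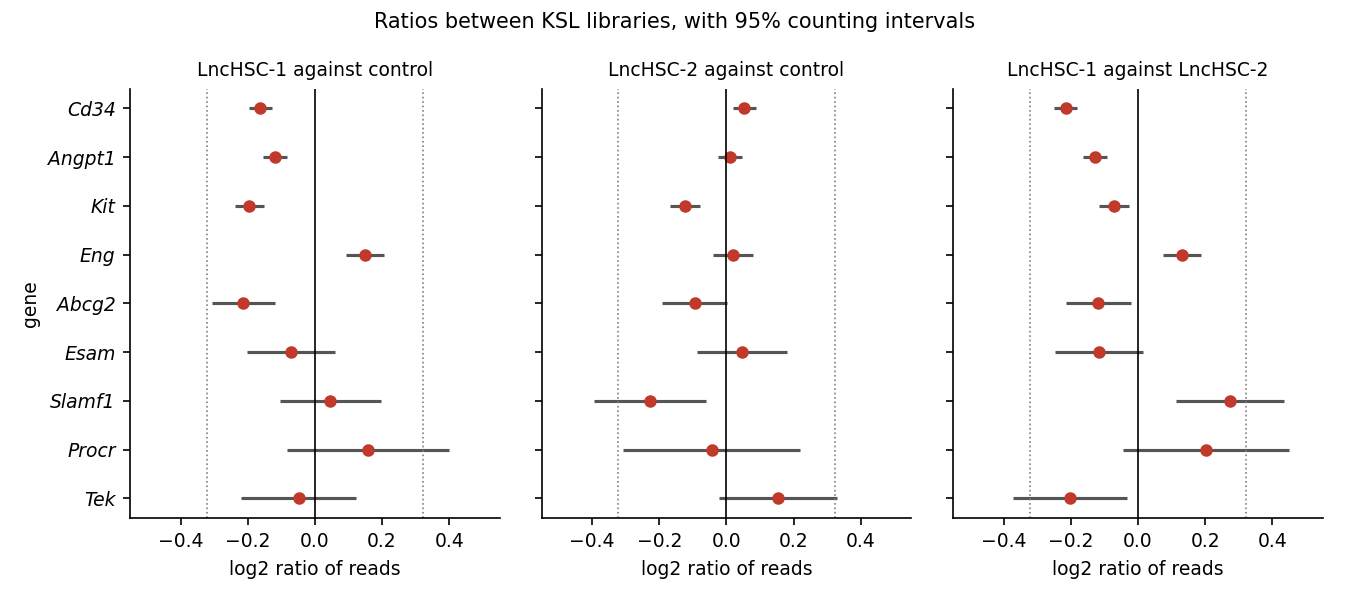
Log2 ratio of estimated reads between 2 KSL libraries for each gene (points) with the 95% counting interval (bars), 1 panel per comparison; dotted lines mark the smaller size limit. Every point lies inside the dotted lines, and the bars widen from Cd34, with 13370 to 14202 reads, to Procr, with 232 to 329.

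In the LncHSC-2 library Slamf1 was the gene of the set furthest from control. On FPKM the set lay closer to control than in the LncHSC-1 library, as did all features (median absolute log2 ratio 0.07 against 0.09). With the count columns as deposited, which place the typical LncHSC-2 feature at -0.14, the order was the other way, with a median of the 8 of -0.16 against -0.09. Slamf1 was at 8.92 against 10.4 FPKM, with 540 against 669 estimated reads, a log2 ratio of -0.21 (-0.39 to -0.06); 3.82% of all features had a lower one. Kit was at 62.0 against 67.6 FPKM (-0.12, -0.17 to -0.08), and Cd34 was slightly higher, at 237 against 229 FPKM (0.05, 0.02 to 0.09), but at -0.09 in the deposited count columns. These were the 3 of 8 genes whose interval left out 0, as did those of 25.5% of all features.

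Abcg2 was at 29.6 against 31.6 FPKM in the LncHSC-2 library (-0.09, -0.19 to 0.00), and Tek at 5.15 against 4.64 FPKM (0.13, -0.02 to 0.33). Angpt1 (0.01), Eng (0.02), Esam (0.04) and Procr (-0.04) lay within 0.05 of control, and their intervals included 0. Angpt1, Eng and Esam also turned in the deposited count columns, to -0.13, -0.13 and -0.10. Again 0 of 8 genes differed by 2-fold or by the smaller size, where 0.951% and 3.93% of all features did; among the 7989 named features 3 and 120 did. Below control were 4 of the 8, against 47.9% of all features, and the median of the 8 was -0.01, against 0.00 for all features.

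One control library serves both knockdown ratios, so Kit being lower in both (-0.19 and -0.12) and Abcg2 being lower in both (-0.21 and -0.09) is not support from separate measurements. The direct ratio of the LncHSC-1 to the LncHSC-2 library leaves the control out. In it Cd34 was lower, at 204 against 237 FPKM (-0.22, -0.25 to -0.18), and Slamf1 was higher, at 10.8 against 8.92 FPKM (0.25, 0.11 to 0.43). Kit was at 59.1 against 62.0 FPKM (-0.07, -0.12 to -0.03), a direction that turned to 0.08 in the deposited count columns.

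Angpt1 (-0.13, -0.16 to -0.09) and Abcg2 (-0.11, -0.21 to -0.02) were also lower with LncHSC-1 than with LncHSC-2 knockdown, and Eng was higher (0.13, 0.07 to 0.19). In the deposited count columns Angpt1 was at 0.02, Abcg2 at 0.03 and Esam at 0.03, so the direction of these 3 depends on the scaling. Tek, below 5 FPKM on average, was at 4.48 against 5.15 FPKM (-0.17, -0.37 to -0.03). Procr (0.18, -0.05 to 0.45) and Esam (-0.11, -0.25 to 0.02) had intervals that included 0. The interval left out 0 for 6 of the 8 genes and for 35.8% of all features. No gene of the 8 differed by 2-fold (1.15% of all features) or by the smaller size (5.82%), sizes that 10 and 258 of the 7989 named features passed, and 5 were lower in the LncHSC-1 library, as were 59.5% of all features. Their median was -0.09 against -0.03 for all features.

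Across the 3 KSL libraries the highest value of a gene stood 1.08 to 1.21 times above its lowest, with a median of 1.15 over the 8 genes, against 1.10 over all 9153 features. Slamf1 had the widest range (1.21) and Esam the narrowest (1.08). All 8 lay inside the central 90% of features, which ran from 1.02 to 1.41.

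**Figure D4:**
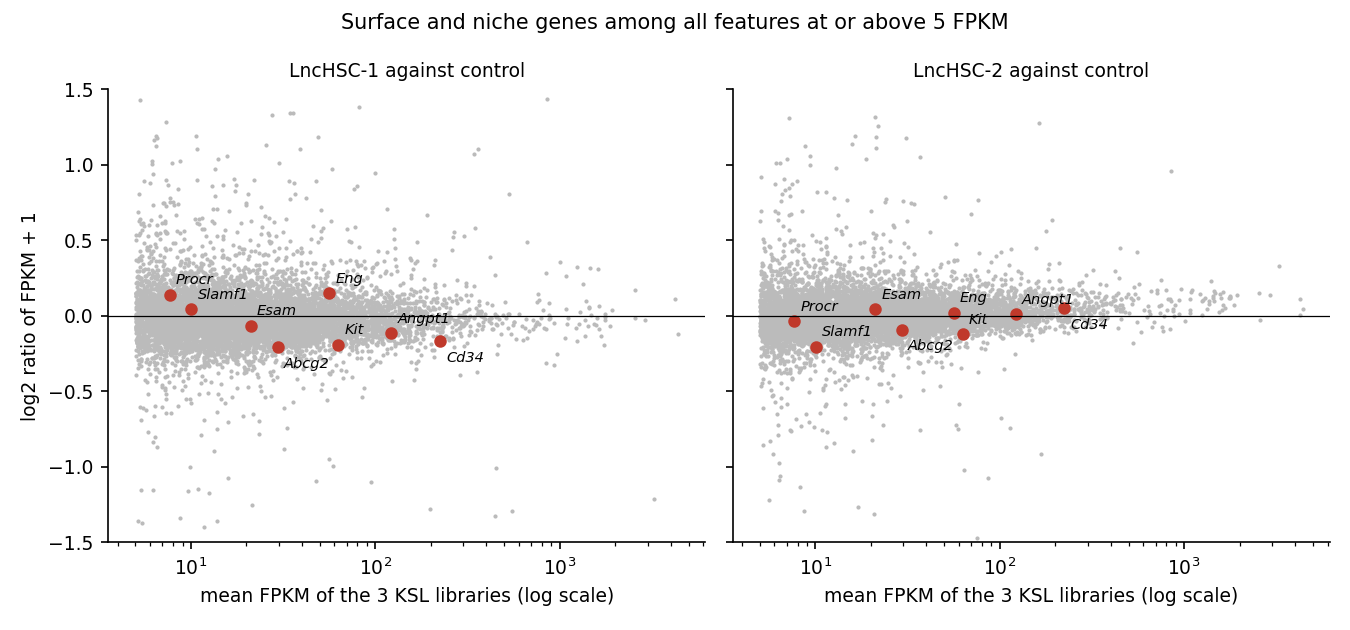
Log2 ratio of FPKM + 1 against the mean FPKM of the 3 KSL libraries for all 9153 features at 5 FPKM or more (grey), with the 8 surface and niche genes in red; features beyond 1.5 on the log2 axis (53 on the left, 61 on the right) are not drawn. The red points lie between -0.21 and 0.15 in both panels, inside the grey cloud.

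Each member was then set beside its partners, from 8 lists of ligands, receptors and relatives. The clearest pattern was in the pairs themselves. Angpt1 stood 26.9, 25.6 and 24.4 times above its receptor Tek, per length, in the control, LncHSC-1 and LncHSC-2 libraries, while the antagonist ligand Angpt2 was at 0.0682, 0.0439 and 0.126 FPKM. The related receptor Tie1, which binds no angiopoietin well by itself and pairs with Tek, was at 26.2, 25.6 and 26.6 FPKM, 5.16 to 5.72 times above Tek. Dok2, an adaptor that docks to activated Tek, was at 37.1, 36.2 and 41.4 FPKM. Of the 5 genes of this list 2 reached 5 FPKM on average, and 0 of these differed by the smaller size from control in either knockdown.

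The transcript for the ligand of Kit was nearly absent from the cells: Kitl was at 0.0671, 0.0896 and 0.0710 FPKM. By design the medium held stem cell factor. The intracellular partners of Kit were present, with 18 of 20 listed genes at 5 FPKM or more. Grb2, the adaptor that links receptors to RAS, was at 93.6 FPKM in the control library and Ptpn6 (SHP-1), a phosphatase that restrains Kit, at 92.2. Shc1, an adaptor of the same route, was higher in both knockdown libraries, at 28.9 and 31.1 against 20.4 FPKM (0.48, 0.41 to 0.59, and 0.59, 0.51 to 0.70), on 1 shared control. It was the only one of the 18 above the smaller size in either knockdown, with 0 below, and the list medians were 0.04 (LncHSC-1) and -0.02 (LncHSC-2). Socs1, a feedback inhibitor, was at 7.49 and 5.38 against 6.49 FPKM (0.18 and -0.23), with intervals that included 0.

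The signalling partners of endoglin are given by FPKM in the control KSL library and in the granulocytes, which differ in experiment and FPKM divisor as well as cell type. Of the 13472 features compared above, 73.1% had a lower FPKM in the granulocytes, and small differences between the 2 are not read. Acvrl1 (ALK1), the receptor with which endoglin acts in vessel walls, was at 0.159, 0.117 and 0.108 FPKM in the control, LncHSC-1 and LncHSC-2 libraries, and at 45.8 and 45.9 FPKM in the granulocyte replicates, where Eng was at 0.360 and 0.393. Some members of the list had, like Eng, a lower FPKM in the granulocytes. The co-receptor Tgfbr3 was at 11.8 FPKM in the control library and 0.265 in granulocytes (mean), and the BMP-responsive Smad1 at 8.50 and 1.17 and Smad5 at 15.7 and 1.73. For others the granulocyte FPKM was the higher value. The TGF-beta receptor genes Tgfbr1 and Tgfbr2 were at 10.2 and 12.7 FPKM in the control library and at 14.7 and 24.8 in granulocytes. The BMP receptor genes Bmpr1a and Bmpr2 were at 0.734 and 5.85 against 10.2 and 8.23 FPKM. The ligand gene Tgfb1 was lower there, at 167 FPKM in the control library and 34.1 in granulocytes. Of 22 listed genes 11 reached 5 FPKM. The BMP target Id1 was the one furthest from control, at 33.8 and 34.5 against 43.0 FPKM (-0.34, -0.49 to -0.20, and -0.31, -0.48 to -0.17), past the smaller size in the LncHSC-1 library only. Tgfbr1 was at 8.49 against 10.2 FPKM in the LncHSC-1 library (-0.24, -0.37 to -0.15). The list medians were -0.07 and -0.03.

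Procr was the least abundant of the surface markers, and its partners spanned a wide range. F2r (PAR1), through which activated protein C bound to Procr signals, was at 68.8, 63.1 and 74.9 FPKM, 7.61 to 10.4 times above Procr per length, and F2rl3 (PAR4), a thrombin receptor, at 39.7, 46.0 and 45.3 FPKM. Thrombomodulin, Thbd, which helps to make activated protein C, was at 0.876, 0.746 and 0.798 FPKM, and the protein C gene Proc was listed at 0 in all 3. Of 9 listed genes 5 reached 5 FPKM; the urokinase receptor Plaur was at 8.005 and 7.11 against 6.17 FPKM (0.33, 0.11 to 0.65, and 0.18, -0.09 to 0.49), past the smaller size in the LncHSC-1 library only. F2rl2 (PAR3) was at 6.82 and 7.23 against 6.07 FPKM (0.15 and 0.22), below Procr in the control and LncHSC-1 libraries and level with it in the LncHSC-2 library. The list medians, 0.15 and 0.18, rest on these 5 genes.

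Among SLAM receptors the marker of more mature progenitors outweighed that of stem cells. Cd48 was at 90.8, 81.3 and 77.6 FPKM in the control, LncHSC-1 and LncHSC-2 libraries, 7.54 to 8.70 times above Slamf1 per length. Cd244, another SLAM receptor of later progenitors, was at 15.9, 13.1 and 16.2 FPKM (LncHSC-1 -0.27, -0.39 to -0.18). Ly9 (CD229) was at 9.97, 12.3 and 9.11 FPKM (LncHSC-1 0.27, 0.14 to 0.45). Of 10 listed genes 4 reached 5 FPKM, 0 of them differed by the smaller size from control, and the list medians were -0.08 and -0.05.

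Cd34 and Esam belong to adhesion. Of 14 junction molecules and sialomucins 9 reached 5 FPKM and 0 differed by the smaller size from control in either knockdown. The sialomucin gene Cd164 was at 108.5 FPKM in the control library. Podxl, a sialomucin related to Cd34, was at 39.7, 37.1 and 31.9 FPKM (LncHSC-2 -0.31, -0.37 to -0.25) and at 0.00752 FPKM in both granulocyte replicates. The list medians were -0.01 and 0.04.

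Abcg2 was not the most abundant exporter. Abcc1, a glutathione-conjugate exporter, was at 40.1, 34.0 and 37.3 FPKM, 1.246 to 1.267 times above Abcg2 per length in the 3 libraries. It too was lower in the LncHSC-1 library (-0.23, -0.29 to -0.18). Abcb1b, a multidrug exporter, was at 12.1, 12.1 and 11.5 FPKM, and Abca7 at 22.8, 23.4 and 23.0. Abcc5 was at 9.52 against 11.1 FPKM in the LncHSC-1 library (-0.20), but its interval of reads, -0.15 to 0.09, included 0 and did not hold that value. Of 11 listed genes 9 reached 5 FPKM, 0 differed by the smaller size from control, and the list medians were -0.04 and -0.03.

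Of 24 other surface genes of stem and progenitor cells 18 reached 5 FPKM. Ly6a, the other sort gene, was at 1211 and 1025 against 1010 FPKM (0.26, 0.23 to 0.29, and 0.02, -0.01 to 0.05), so in the LncHSC-1 library it was higher while Kit was lower. The adhesion receptor gene Gpr56 was at 386, 409 and 408 FPKM. The integrin gene Itgb3 was at 80.3 and 76.9 against 62.1 FPKM (0.37 and 0.30), and Thy1 at 9.87 and 5.55 against 6.44 FPKM (0.55, 0.39 to 0.84, and -0.18, -0.49 to 0.05). These 2 were past the smaller size in the LncHSC-1 library, and 0 genes of the list were in the LncHSC-2 library; the medians were 0.05 and 0.01. Prom1 (CD133), a marker of human stem cells, was at 0.0790, 0.1504 and 0.124 FPKM in KSL cells and at 11.3 and 11.7 in the granulocytes, and Mcam at 0.0722, 0.124 and 0.153 against 10.2 and 10.1 FPKM.

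**Figure D5:**
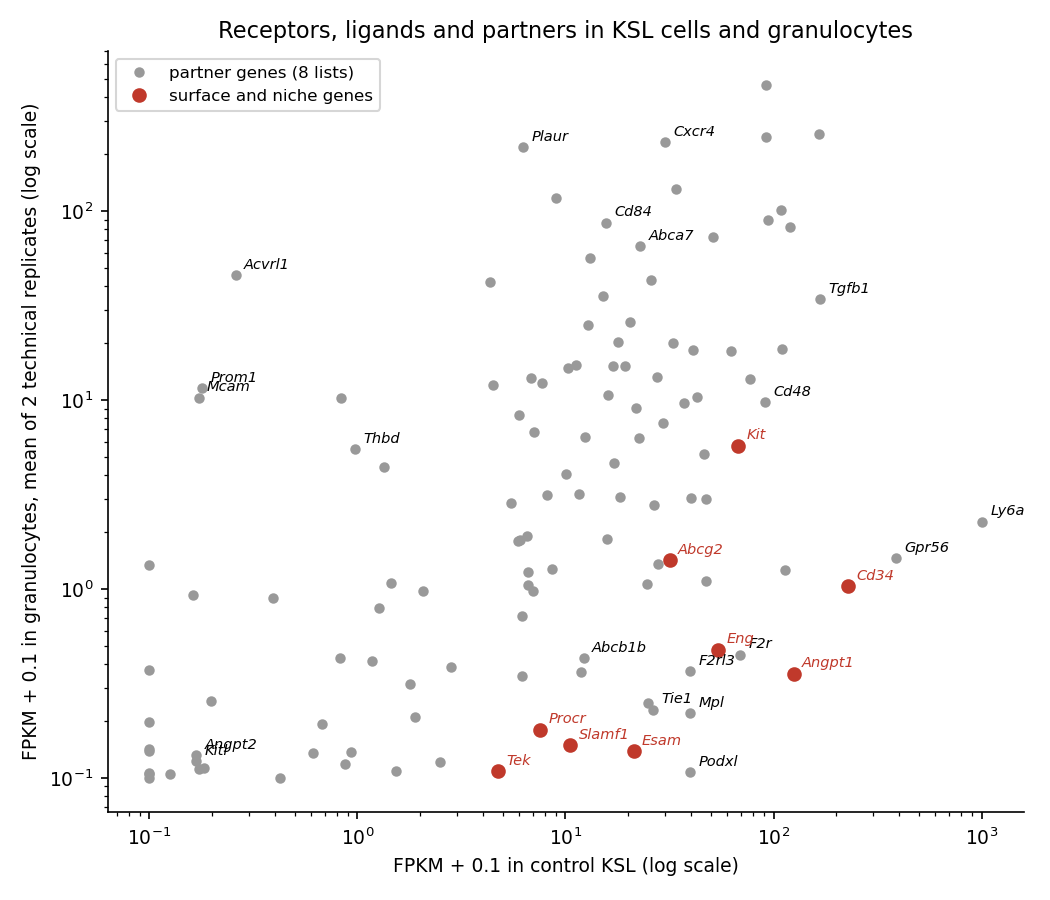
FPKM + 0.1 in the control KSL library against the granulocyte mean of 2 technical replicates, both on log axes, for the 9 surface and niche genes (red) and the genes of the 8 partner lists (grey, some labelled). Eng lies at the lower right (53.9 against 0.377 FPKM) and its partner Acvrl1 at the upper left (0.159 against 45.8).

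The genes most like each member in level were found among 10464 named features by the largest difference of log2(FPKM + 1) over 4 values, the 3 KSL libraries and the granulocyte mean. Slamf1 was nearest to the homeobox gene Hoxa9 (10.2, 11.2, 9.10 and 0.0264 FPKM, largest difference 0.05). Eng was nearest to Gfi1b, a repressor of the erythroid and platelet lineages (56.1, 61.9, 53.2 and 0.468 FPKM, 0.09), and to Nrgn (0.17). Cd34 had no close neighbour: the nearest were the mucin gene Muc13 (192, 188, 190 and 0.362 FPKM, 0.51) and Ctla2a (0.53).

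Kit was nearest to Nucks1 (0.06) and Zfp706 (0.09), Procr to Trim47 (0.04) and Ltbp3 (0.07), and Tek to Gbx2 and Mdga1 (both 0.09). Esam was nearest to Lzts2 (0.08) and Fgf3 (0.12), Angpt1 to Tspan4 (0.23) and Myl10 (0.23), and Abcg2 to Rbpms (0.10) and E2f6 (0.11). Over 4 values such likeness is mostly one of level, and it describes these libraries only.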

How the data were processed

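RNA of 5 libraries had been sequenced and summarised by the submitters. The submitters' processing notes name the mouse build mm9; for aligner, counter and annotation release: not given in the sources used here. FPKM values are as deposited. Granulocyte count columns as deposited hold a score, reads multiplied by a library factor and rounded (replicate 1 never takes the value 8). KSL count columns as deposited hold a signal in which each read is worth a constant set by its library: 91.9% to 92.2% of values up to 20 reads were whole multiples of that constant within 0.1 read, and dividing by it gave estimated reads. Those reads served for depth per gene, for read ratios and their counting intervals, and for no test, since with 1 library per group no count test is possible.

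Log2 ratios of FPKM + 1 were computed over the whole table and described for features with a mean of at least 5 FPKM (9153). Sizes of 2-fold and 1.25-fold were used. Counting intervals are exact binomial (Clopper-Pearson, 95%) on rounded reads, with depth taken from the reads behind 1 FPKM (depth ratios 1.17, 0.945 and 1.23 for the 3 comparisons), in Python 3.11.15 with scipy 1.17.1. They were tested on simulated reads with Poisson counting error and a known depth ratio. That test covers neither the spread between libraries nor the estimates of reads and depth.

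The 9 genes, the partner and marker lists and the motifs were chosen with earlier results of these data known. Named beside the 9 genes are up to 4 genes of each partner list (the 2 highest in control KSL and the 2 furthest from control), up to 3 of each marker list, and the 2 nearest features of each gene; 2 of the genes this names are not reported here. Other genes, among them Kitl, Angpt2, Acvrl1, Tgfbr2, Tgfbr3, Smad1, Smad5, Thbd, Proc, Abcb1b, Prom1, Mcam, Cdh5, Flt1, Kdr, Plvap, Cldn5, Csf1r, Emr1 and the features at shared loci, were chosen after their values were seen. So were Bmpr1a, Bmpr2, Gp9, Gp5, Ltf, Mmp8 and Cma1. Emr1 stands for Adgre1 in the monocyte list. RefSeq sequences are in GRCm38.p6 and were matched by symbol; no coordinates were converted.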

Additional observations from a re-analysis of the deposited data

How the results depend on the processing

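The log2 ratios of the 9 genes were recomputed with pseudocounts of 0.1 and 5, with median-of-ratios factors on FPKM, and with the deposited count columns before and after centring. All 9 kept their sign in the 3 comparisons under each of these, except with the count columns as deposited: then 4 of 9 changed sign in LncHSC-2 against control (Cd34, Esam, Eng, Angpt1) and 4 of 9 in LncHSC-1 against LncHSC-2 (Kit, Esam, Angpt1, Abcg2). Those columns place the typical feature of the LncHSC-2 library at -0.14 against control, and the median of the 8 genes became -0.16 in LncHSC-2 against control and 0.052 in LncHSC-1 against LncHSC-2 (the cause was not tested); after centring it was -0.02 and -0.08. Counts of all 9153 features past 2-fold, 97, 87 and 105 in the 3 comparisons (LncHSC-1 and LncHSC-2 against control, then LncHSC-1 against LncHSC-2), were 221, 209 and 209 with a floor of 1 FPKM and 283, 265 and 266 without one. Among the 7989 named features only, a setting chosen after seeing the data, they were 12, 3 and 10. The granulocyte level of each gene without replicate 1 or 2 is the value of the other replicate given above; for Procr it was 0.133 or 0.0267 FPKM.

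Counting precision limits Procr, Tek and Slamf1 in KSL cells and Procr, Slamf1, Esam and Tek in granulocytes. Between libraries the spread of replicates is unknown, so no difference here is shown to belong to a knockdown.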
